A study of Homo sapiens with 3 samples.

Results

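The genes described here are those whose RNA level differed from parental MM468 cells in the same direction in an adriamycin-resistant line and in a paclitaxel-resistant line. MM468 is short for MDA-MB-468, a triple-negative breast cancer cell line, here labelled as breast epithelial cells of genotype WT and left untreated. The adriamycin-resistant line, called the adriamycin line here, survived exposure to 10 to 140 nM adriamycin, an anthracycline that poisons topoisomerase II. The paclitaxel-resistant line, called the paclitaxel line, survived exposure to 2 to 320 nM paclitaxel, which stabilises microtubules. All 3 lines were grown in the same serum-supplemented medium, and each gave 1 RNA-seq library. The adriamycin line and the paclitaxel line were taken as 1 group of 2 resistant libraries and set against the single MM468 library. Of 46427 genes in the count table, 19561 had 10 or more counts in any library and were kept. Of these, 12077 differed in the same direction in both lines, 6377 upwards and 5700 downwards, and the other 7484 did not. The common change of a gene is the smaller of its 2 changes against MM468. It was 2-fold or more for 1589 genes higher in both lines, or 8.12% of the kept genes, and for 927 genes lower in both, or 4.74%. Of the 14504 protein-coding genes kept, 839 (5.78%) were higher and 659 (4.54%) were lower. Shares of gene lists given below are to be read against both pairs of values.

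Cancer cells that survive cytotoxic drugs often carry efflux pumps of the ABC transporter family, which use ATP to move drugs out of the cell. The best known of these pumps, P-glycoprotein, is the product of ABCB1 and accepts both anthracyclines and taxanes. Other routes known from tumour cells are altered drug targets, drug-metabolising enzymes, a raised threshold for cell death, and changes of cell state such as a loss of epithelial features. Genes found changed after exposure to unlike drugs are therefore a usual starting point in studies of multidrug resistance.

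Both resistant lines share their single control, so a chance deviation of the MM468 library moves both changes the same way, and a gene counted here is not replicated by being seen in both lines. No line had a second library. Nothing in the sources used here says whether the resistant lines were clones or were under drug at harvest. The libraries held 32704885 counts for MM468, 47567927 for the adriamycin line and 43242628 for the paclitaxel line. With TMM scaling, the median log2 change of all kept genes was 0.01 in the adriamycin line and 0.07 in the paclitaxel line. With scaling by library size alone, the paclitaxel line median moved to 0.29. The epithelial keratins KRT8, KRT18, KRT19 and KRT7 had 965 TPM or more in all 3 libraries, and EGFR, which is amplified in this line, had between 1152 and 1288 TPM. RB1, which this line is known to have lost, had 45 to 66 counts, and SMAD4 had 16 to 104 counts. Blood markers summed to between 2 and 52 counts, with MS4A1 at 0. The fibroblast markers COL1A2 and LUM were at 0 in all 3 libraries, although COL1A1 had 659, 1629 and 820 counts. Counts written as 3 values are given throughout in the order MM468, the adriamycin line and the paclitaxel line. Folds are ratios of counts scaled by TMM, and when they stand as a pair the adriamycin line value comes first. In bulk RNA, a change in the number of cells and a change in RNA per cell cannot be told apart.

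No gene passed edgeR's quasi-likelihood test of the 2 resistant libraries against MM468. This test takes the gap between the resistant lines as the error, with 1 residual degree of freedom, and assumes that the lone MM468 library varies like them. The smallest adjusted p was 0.216, shared by ABCB1, BTNL9 and STRA6. At an unadjusted p under 0.05, 823 genes passed (4.21% of the kept genes), 434 upwards and 389 downwards. DESeq2's Wald test called 246 genes at an adjusted p under 0.05 (1.52% of those with a value), 166 upwards and 80 downwards. The genes below are therefore described by their size of change and by the counts behind them, and intervals cover counting error alone.

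The gap between the 2 resistant lines was smaller than the common change for 1411 of the genes higher in both (88.8%) and for 666 of the genes lower in both (71.8%). These shares do not measure agreement between the lines, because the genes were selected for a large common change. In addition, 755 of the higher genes had 0 counts in MM468. The size of their change depends on the small prior count added before the logarithm. The calls took up unequal shares of each line's own 2-fold changes. Genes higher in both made up 66.6% of the genes higher in the adriamycin line and 39.4% of those higher in the paclitaxel line. Genes lower in both made up 39.3% and 34.5% of the respective lists.

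The genes higher in both were mostly scarce in MM468. Their median level in MM468 was 0.0285 TPM, against 3.55 TPM for genes lower in both and 8.40 TPM for all kept genes. The rule for keeping genes set part of this contrast. A gene lower in both could reach 10 counts only through MM468, while a gene higher in both could do so through a resistant line. No gene lower in both therefore had 3 or fewer counts in MM468. Of the 1589 genes, 755 had 0 counts in MM468, 928 had 3 or fewer, and 1052 stayed under 100 counts in every library. For 144 of them, MM468 and a resistant line were both at 3 counts or fewer. Long non-coding RNAs made up 36.1% of the genes higher in both, 23% of those lower in both and 17% of all kept genes.

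The excess of higher over lower genes depended on these low counts. Higher genes were 63.2% of all calls. Setting counts below 3 to 3 left 1125 higher and 931 lower genes, so that higher genes were 54.7%. Requiring the 95% counting interval of both changes to start at 2-fold or beyond left 460 higher and 530 lower, or 46.5%, and lower genes then outnumbered higher ones. Where every library had 100 or more counts, 95 were higher and 305 were lower. At the other extreme, 33 genes went from 3 counts or fewer in MM468 to 100 or more in both resistant lines, and 4 went from 100 or more in MM468 to 3 or fewer in both.

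**Figure D1:**
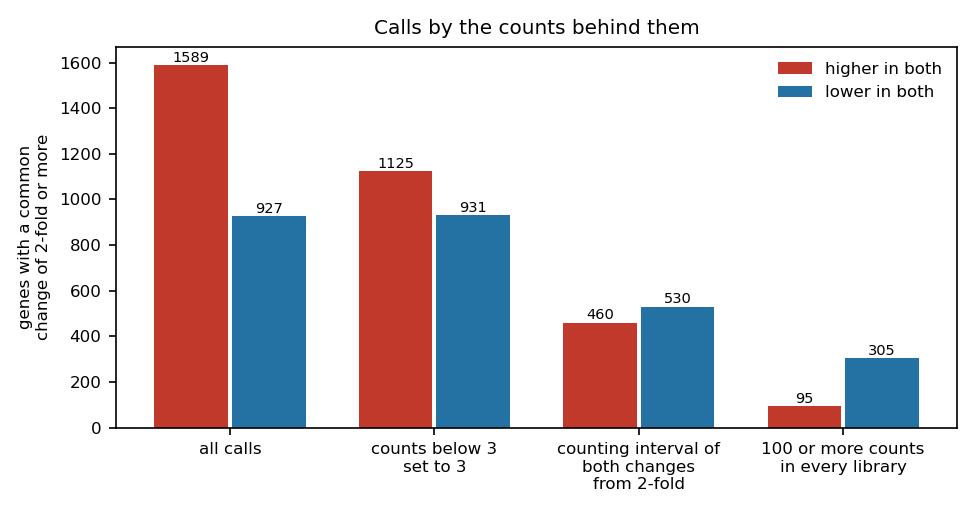
Number of genes with a common change of 2-fold or more, higher in both lines in red and lower in both in blue, under 4 requirements on the counts. The order of the bars turns over between the requirements that set counts below 3 to 3 and that use the counting interval, from 1125 higher and 931 lower to 460 higher and 530 lower.

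ABCB1, the gene of the drug efflux pump P-glycoprotein (chr7:87503017-87713295, GRCh38.p14), had the largest common change of any protein-coding gene with enough counts once counts below 3 were set to 3. It had 10, 8374 and 8171 counts in the 3 libraries. The fold was 572 in the adriamycin line (95% interval 311 to 1194) and 529.9 in the paclitaxel line (288 to 1105). The 2 resistant lines lay within 0.11 of each other on the log2 scale, and both were far above MM468.

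Of 39 ABC transporter genes kept, 8 were higher in both lines (20.5%, against 8.12% of all kept genes) and 1 was lower (2.56%, against 4.74%). The median log2 change of the list was 0.57 in the adriamycin line and 0.36 in the paclitaxel line. ABCG2, another broad efflux pump, had 0, 162 and 28 counts, at least 36.9- and 6.05-fold higher. ABCB4, a phospholipid transporter whose gene lies beside ABCB1, had 0, 57 and 87 counts, at least 13- and 18.8-fold higher, with reads that ABCB1 can share through sequence similarity. Both transporters went from no count in MM468 to between 28 and 162 counts in the resistant lines. ABCA5, a lipid transporter, had 714, 3969 and 2485 counts and was 3.80- and 2.26-fold higher. ABCC11, a transporter of conjugated organic anions that the study names, had 7, 23 and 62 counts. Its fold was 2.25 in the adriamycin line (95% interval 0.933 to 6.20) and 5.74 in the paclitaxel line (2.63 to 14.9), and the adriamycin line interval includes no change. ABCB11, ABCA10 and CFTR were also called, all at 56 counts or fewer. TAP1, which carries peptides to MHC class I, was the transporter lower in both, with 3010, 1415 and 1905 counts.

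On chromosome 7, the neighbours ABCB4, ABCB1 and RUNDC3B were called together, over chr7:87365896-87832296. RUNDC3B had 26, 435 and 565 counts and was 11.4- and 14.1-fold higher. On chromosome 4, ABCG2, PPM1K and HERC6 were likewise called as neighbours, over chr4:88090264-88443097.

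Drug-metabolising enzymes were called at about the share of all genes. Of 29 conjugation and reduction genes kept, 2 were higher (6.90%, against 8.12% of all kept genes) and 1 was lower (3.45%, against 4.74%). Of the protein-coding genes kept, 5.78% were higher and 4.54% were lower. NNMT, a methyltransferase of nicotinamide, had 26, 3438 and 125 counts, 90.4- and 3.12-fold higher, so that the adriamycin line exceeded the paclitaxel line by far more than the paclitaxel line exceeded MM468. AKR1C3, an aldo-keto reductase able to reduce anthracyclines, had 153, 1445 and 621 counts and was 6.45- and 2.63-fold higher. GSTM3, a glutathione transferase, had 4623, 2272 and 3404 counts and was 2.98- and 2.09-fold lower. It lies on chromosome 1 and was not past 2-fold with scaling by library size alone, at a common log2 change of -0.84, or with the chromosome's median subtracted, at -0.71.

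The aryl hydrocarbon receptor gene AHR differed little, with 8177, 10399 and 9393 counts and log2 changes of -0.20 in the adriamycin line and -0.42 in the paclitaxel line. Of 10 kept genes of the receptor and its targets, 2 were higher in both (20%, against 8.12% of all kept genes), and 2 went past 2-fold in opposite directions. UGT1A6, a glucuronosyltransferase, had 50, 3602 and 1691 counts and was 49.2- and 21.9-fold higher. The UGT1A genes share exons, so their run of higher calls on chromosome 2 cannot be divided between them. AHRR, the repressor of the receptor, had 0, 14 and 90 counts. The direct target CYP1A1, with 1432, 925 and 5318 counts, was past 2-fold lower in the adriamycin line and past 2-fold higher in the paclitaxel line. CYP1B1, another direct target, had no common change of 2-fold, with 9402, 31248 and 15873 counts.

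Of 19 topoisomerase and tubulin genes, which encode the drug targets, only TUBB4A was called, with 0, 26 and 10 counts. The share higher was 5.26%, against 8.12% of all kept genes and 5.78% of the protein-coding genes kept. TOP2A, the topoisomerase that adriamycin poisons, had 10803, 24041 and 20919 counts and log2 changes of 0.60 in the adriamycin line and 0.33 in the paclitaxel line. TUBB3, a beta-tubulin often studied in taxane resistance, had 942, 1828 and 1858 counts and log2 changes of 0.41 in the adriamycin line and 0.36 in the paclitaxel line.

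None of 19 BCL2 family genes was called in either direction, against 8.12% higher and 4.74% lower of all kept genes. Of 23 p53 target genes, 3 were higher (13%) and none was lower. FAS, a death receptor, had 45, 201 and 198 counts and was 3.05- and 2.85-fold higher. BTG2, an antiproliferative gene, had 43, 299 and 208 counts and was 4.75- and 3.14-fold higher. TIGAR, a regulator of glycolysis, had 443, 1509 and 1715 counts and was 2.33- and 2.51-fold higher. The gene most used as a readout of p53, CDKN1A, went in opposite directions, with 956, 411 and 1857 counts. Of 37 cell cycle genes, none was higher and 2 were lower (5.41%, near the 4.74% of all kept genes). These 2 were CCND3 and MCM3, at 2.01- to 2.44-fold. Both lie on chromosome 6, whose median gene was lower in both resistant lines, and neither was past 2-fold once those medians were subtracted, at common log2 changes of -0.73 and -0.46.

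The other genes with the largest common changes upwards were nearly silent in MM468. WWC2, an adaptor related to the Hippo pathway protein KIBRA (chr4:183099257-183320777, GRCh38.p14), had 0, 2042 and 8686 counts, at least 465- and 1878-fold higher. BTNL9, of the butyrophilin family, had 0, 1278 and 1985 counts, at least 291- and 429-fold higher. GFRA1, a co-receptor for the growth factor GDNF, had 0, 760 and 2049 counts, at least 173- and 443-fold higher. All of these went from no count to 760 or more in both lines, and the paclitaxel line was the higher of the resistant lines. ZC3H12C, of a family of RNA-degrading zinc finger proteins, had 0, 639 and 2433 counts. KCTD12, an auxiliary subunit of GABA-B receptors, had 0, 1648 and 499 counts. KCTD12 was higher in the adriamycin line than in the paclitaxel line, and ZC3H12C the other way round. FLRT3, a cell adhesion protein, had 0, 386 and 1308 counts, PLEKHA5 had 0, 361 and 839 and SCN8A, a sodium channel gene, had 0, 210 and 580.

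COL12A1, which encodes a collagen found on the surface of fibrils (chr6:75084326-75206053, GRCh38.p14), was the only one of these 15 genes with more than 10 counts in MM468. It had 277, 32669 and 35724 counts, 80.6- and 83.6-fold higher, and the 2 resistant lines differed little. CPQ, a carboxypeptidase, had 5, 462 and 547 counts, 63.1- and 70.9-fold higher. ZDHHC2, a palmitoyltransferase, had 8, 746 and 1297 counts, 63.7- and 105-fold higher. PDZD4 had 4, 437 and 412 counts, 74.7- and 66.8-fold higher. These 3 genes kept a few counts in MM468, which makes their folds imprecise. GULP1, an engulfment adaptor, had 3, 212 and 841 counts, and its fold was 48.3 in the adriamycin line (95% interval 16.3 to 236) and 182 in the paclitaxel line (62 to 883). POTEM had 0, 279 and 204 counts, but its near-identical POTE relatives can take or give reads.

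The largest common changes downwards included genes that were abundant in MM468. STRA6, the membrane receptor for retinol uptake (chr15:74179466-74212259, GRCh38.p14), had 1252, 20 and 20 counts, 91.6- and 96.5-fold lower. The 2 resistant lines had the same count. TSC22D3, a glucocorticoid-induced leucine zipper gene (chrX:107713221-107775988), had 7219, 638 and 420 counts, 16.6- and 26.5-fold lower. NEURL3, a ubiquitin ligase gene, had 155, 5.54 and 4.45 TPM, 27.1- and 42.9-fold lower. For each of these genes the gap between the resistant lines was small beside the gap to MM468. S100A4, a calcium-binding protein, had 1679, 160 and 101 counts, 15.4- and 25.6-fold lower. RCAN2, a regulator of calcineurin, had 1288, 105 and 130 counts, 18- and 15.3-fold lower. PLEKHS1 had 719, 23 and 23 counts, 45.7- and 48.2-fold lower. PRODH, proline dehydrogenase, had 1074, 82 and 30 counts and was 19.2- and 55.2-fold lower, further in the paclitaxel line than in the adriamycin line.

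ELAPOR1 showed a still wider gap, with 3158, 316 and 26 counts and 14.6- and 187-fold lower. POU2AF1, a coactivator of octamer-binding transcription factors known from B cells (chr11:111352255-111379275), had 135, 0 and 0 counts, at least 65.9- and 69.4-fold lower. ITGBL1 had 225, 0 and 7 counts and OLFML3 had 192, 11 and 0, each with no count in 1 of the resistant lines. DDC, the decarboxylase of dopamine synthesis, had 138, 6 and 8 counts, 33.7- and 26.6-fold lower. The remaining genes of the 15 were TMEM156 with 365, 26 and 14 counts, BIN2 with 524, 43 and 26 and PDGFRA, a growth factor receptor, with 152, 12 and 16. CYYR1 was also among the 10 lower genes with the smallest quasi-likelihood p. It had 1084, 97 and 116 counts and was 16.4- and 14.4-fold lower.

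**Figure D2:**
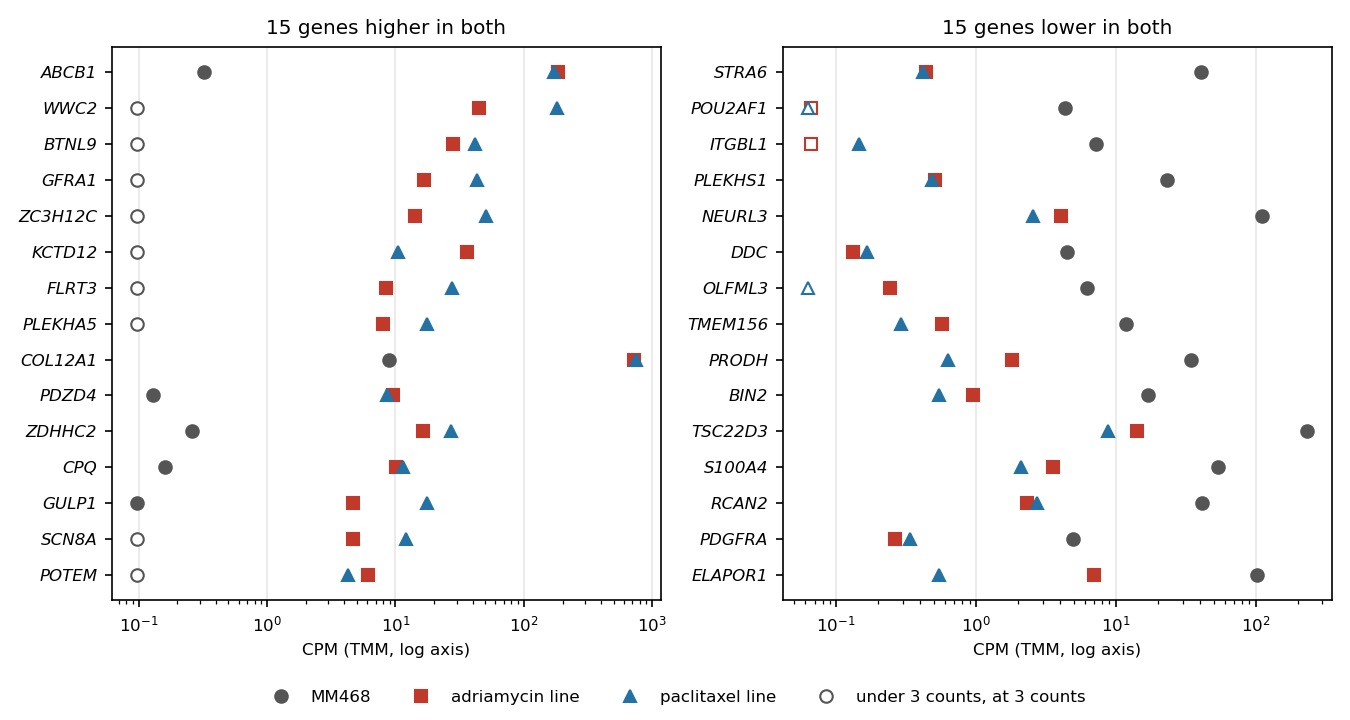
Level in CPM, counts scaled to library size (log axis), in MM468 (grey circles), the adriamycin line (red squares) and the paclitaxel line (blue triangles) of the 15 protein-coding genes with the largest common change in each direction, 1 library per line. Open symbols had under 3 counts and are drawn at 3 counts. In every row the resistant lines lie on the same side of MM468, which the choice of genes by common change requires. COL12A1 is the only gene on the left with MM468 above 1 CPM.

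Genes with the largest differences in abundance gave a different picture from those with the largest folds. On the TPM scale, which is per transcript length, FTL, the ferritin light chain, had the largest gain when genes were ranked by the smaller of their 2 gains. Its levels were 278, 769.8 and 854 TPM, 2.87- and 2.44-fold higher on scaled counts. FTL has processed copies in the genome that can share its reads. PEG10, an imprinted gene of retroviral origin expressed in placenta, had 243, 497 and 903 TPM and was 2.13- and 2.97-fold higher, and its gain in the paclitaxel line exceeded that of FTL. CASP4, an inflammatory caspase, had 66.3, 169.8 and 240.4 TPM and was 2.67- and 2.91-fold higher. ITGA3, the integrin alpha 3 chain, had 64.9, 152 and 217 TPM and was 2.44- and 2.69-fold higher. These genes were already abundant in MM468 and were between 2- and 3-fold higher in each line. CALB2, the calcium-binding protein calretinin, had 46, 2363 and 4091 counts and 1.71, 71.1 and 152 TPM, 35.1- and 57.7-fold higher. NRK, a kinase known from placenta, had 60.4, 158 and 212 TPM and was 2.73- and 2.78-fold higher. H1-2, a linker histone, had 27.1, 90.3 and 139 TPM, and PSG4, a pregnancy-specific glycoprotein, had 8.37, 90.5 and 69.8 TPM.

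MGP, the matrix Gla protein that inhibits calcification, lost most. Its levels were 1968, 467 and 428 TPM, 4.04- and 5.75-fold lower. CD44, the hyaluronan receptor, had 762, 281 and 182 TPM and was 2.59- and 5.37-fold lower. APP, the amyloid precursor protein, had 1167, 415 and 586 TPM and was 2.71- and 2.49-fold lower. Each of these was below MM468 in both lines by 2.49-fold or more. SAT1, which acetylates spermidine and spermine, had 607, 202 and 125 TPM and was 2.95- and 5.14-fold lower. FXYD3, a sodium pump regulator, had 399, 91.2 and 73.5 TPM and was 4.15- and 7.11-fold lower. NDUFS5, a subunit of respiratory complex I, had 1205, 495 and 661 TPM and was 2.46- and 2.31-fold lower.

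Metallothioneins bind zinc and copper and are induced by metals through short metal response elements in their promoters. All 4 metallothionein genes kept of 12 listed were lower in both lines, over chr16:56608584-56684196. The median log2 change of these 4 was -2.74 in the adriamycin line and -1.29 in the paclitaxel line. MT2A had 9999, 1755 and 5438 counts, 8.34- and 2.84-fold lower. MT1X had 1399, 475 and 872 counts, 4.31- and 2.47-fold lower. MT1F had 237, 65 and 151 counts, 5.34- and 2.42-fold lower. In each gene the adriamycin line was the lowest library and the paclitaxel line lay between it and MM468. MT1E had 964, 0 and 707 counts, with none in the adriamycin line beside a 2.10-fold lower level in the paclitaxel line. The genes are near-identical in places, so reads may have been split between them, and the 4 are not independent measurements. The promoters of the genes that could be matched in RefSeq (GRCh38.p14) are shown because the members were lower together and their known control element can be read in them. Each run covers 250 bases before to 50 after the annotated start, 5′ to 3′, with matches to TGCACNC or TGCGCNC on either strand in capitals. The MT2A window (chr16:56608334-56608633, plus strand) held 8 matches and the MT1X window (chr16:56682220-56682519, plus strand) held 4.
MT2A: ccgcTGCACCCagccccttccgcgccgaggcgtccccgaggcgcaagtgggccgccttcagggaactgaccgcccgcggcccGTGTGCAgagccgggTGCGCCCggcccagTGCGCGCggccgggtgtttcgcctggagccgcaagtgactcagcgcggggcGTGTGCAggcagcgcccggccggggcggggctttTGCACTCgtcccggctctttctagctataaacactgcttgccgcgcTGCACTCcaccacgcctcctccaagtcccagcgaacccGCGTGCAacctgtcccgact
MT1X: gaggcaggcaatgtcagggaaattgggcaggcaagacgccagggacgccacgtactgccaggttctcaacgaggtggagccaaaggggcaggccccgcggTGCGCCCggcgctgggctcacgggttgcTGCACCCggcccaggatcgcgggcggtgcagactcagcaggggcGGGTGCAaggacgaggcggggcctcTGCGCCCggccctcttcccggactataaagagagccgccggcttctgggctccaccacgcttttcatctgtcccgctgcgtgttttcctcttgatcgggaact
Of all protein-coding genes kept that had such a window, 38.4% held at least 1 match, against 33.4% of the genes higher and 36.5% of the genes lower in both. A match describes letters only.

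Extracellular matrix and adhesion genes differed in both directions. Of 31 collagen genes, 5 were higher (16.1%, against 8.12% of all kept genes) and 4 were lower (12.9%, against 4.74%). The medians of the list were -0.54 in the adriamycin line and 0.24 in the paclitaxel line on the log2 scale. Besides COL12A1, the fibril-forming COL5A2 had 325, 1285 and 2833 counts and was 2.70- and 5.65-fold higher. Its partner chain COL5A1 had 0, 151 and 1201 counts, at least 34.4- and 259.6-fold higher. COL26A1 had 3, 243 and 152 counts, and its fold was 55.3 in the adriamycin line (95% interval 18.7 to 270.3) and 32.9 in the paclitaxel line (11 to 161). The 4 lower collagens, COL13A1, COL15A1, COL21A1 and COL24A1, had 195 counts or fewer in MM468.

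Of 29 integrin and laminin genes, 6 were higher (20.7%, against 8.12% of all kept genes) and 3 were lower (10.3%, against 4.74%). LAMA4, a laminin chain of endothelial and mesenchymal basement membranes, had 3342, 10388 and 11454 counts and was 2.12- and 2.22-fold higher. ITGA1, a collagen-binding integrin chain, had 0, 24 and 996 counts, a far larger count in the paclitaxel line than in the adriamycin line. ITGA6, a laminin-binding chain of epithelial hemidesmosomes, had 6247, 3918 and 2979 counts and was 2.33- and 3.23-fold lower. ITGB8 had 3660, 2640 and 2239 counts and was 2.03- and 2.52-fold lower. SDC2, a heparan sulfate proteoglycan, had 0, 19 and 5101 counts, so nearly all of its change lay in the paclitaxel line.

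Of 24 matrix protease and inhibitor genes, 4 were higher (16.7%, against 8.12% of all kept genes) and 2 were lower (8.33%, against 4.74%). ADAMTS3, a procollagen-processing protease, had 31, 248 and 431 counts and was 5.47- and 9.02-fold higher. MMP7, an epithelial matrix metalloprotease, had 250, 51 and 0 counts and was 7.17- and at least 129-fold lower. Of 50 clustered protocadherin genes, 12 were higher (24%, against 8.12% of all kept genes) and 1 was lower (2%, against 4.74%). PCDHA3 had 91, 438 and 371 counts and was 3.29- and 2.64-fold higher, and PCDHAC2 had 10, 137 and 91 counts and was 9.36- and 5.90-fold higher. Genes of the alpha and of the gamma cluster share their last exons, so their counts are not independent. Of the 12, 7 had under 100 counts in every library.

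Epithelial junction genes had no common change of 2-fold, although 12 were lower and 3 were higher in both lines to any degree. None of 26 epithelial junction genes was called, and CDH1 (E-cadherin) had 3364, 5744 and 8919 counts, with log2 changes of 0.22 in the adriamycin line and 0.78 in the paclitaxel line. Of 14 mesenchymal genes, 2 were higher and 2 were lower (14.3% each, against 8.12% and 4.74% of all kept genes). FAP had 52, 398 and 544 counts and was 5.23- and 6.78-fold higher, and AXL, a receptor tyrosine kinase, had 88, 383 and 1243 counts and was 2.97- and 9.16-fold higher. TAGLN, an actin-binding protein, had 1036, 338 and 274 counts and was 4.49- and 5.83-fold lower, as was S100A4. VIM and ZEB1 were not called. Thus the mesenchymal list held calls in both directions, with medians of -0.01 in the adriamycin line and 0.23 in the paclitaxel line.

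Claudins, the barrier proteins of tight junctions, were more often lower. Of 12 kept, 4 were lower (33.3%, against 4.74% of all kept genes) and 1 was higher (8.33%, against 8.12%). The medians of the list were 0.06 in the adriamycin line and -0.79 in the paclitaxel line. CLDN8 had 4039, 776 and 416 counts and was 7.62- and 15-fold lower. CLDN10 had 2710, 1955 and 55 counts and was 2.03- and 76-fold lower, a near-threshold change in the adriamycin line beside a large one in the paclitaxel line. Of 30 keratins, 2 were higher and 2 were lower (6.67% each). The basal keratin KRT14 had 2347, 515 and 474 counts and was 6.67- and 7.64-fold lower, while KRT13 had 25, 327 and 593 counts and was 8.94- and 15.4-fold higher.

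Of 16 breast lineage transcription factor genes, 4 were lower (25%) and 1 was higher (6.25%). TP63, the basal epithelial regulator that the study names, had 54, 2453 and 553 counts, 31- and 6.64-fold higher. FOXA1, a luminal pioneer factor, had 1044, 653 and 747 counts and was 2.34- and 2.16-fold lower. SPDEF, a luminal and secretory factor, had 2811, 1402 and 190 counts and was 2.93- and 22.8-fold lower. FOXC1, a factor typical of basal-like tumours, had 1533, 417 and 929 counts and was 5.38- and 2.54-fold lower. XBP1 had 4829, 2587 and 821 counts and was 2.73- and 9.07-fold lower. With the medians of chromosomes 22 and 6 subtracted, XBP1 and FOXC1 fell short of 2-fold, at common log2 changes of -0.97 and -0.79. The lower genes thus included factors of luminal and of basal-like cells, while TP63 was higher.

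Of 27 genes for the vacuolar proton pump and for acid-secreting intercalated cells, none was higher and 6 were lower (22.2%), with medians of -0.24 in the adriamycin line and -0.66 in the paclitaxel line. TFCP2L1, a transcription factor of these kidney cells, had 12463, 6070 and 1305 counts and was 3.0- and 14.7-fold lower. FOXI1, their defining regulator, had 5887, 4131 and 487 counts and was 2.09- and 18.6-fold lower. The tissue-restricted pump subunits followed the same order of libraries. ATP6V1B1 had 7591, 2803 and 171 counts, ATP6V0A4 had 4417, 1081 and 146 and ATP6V0D2 had 2738, 489 and 55. In all of these 5 genes the paclitaxel line lay far below the adriamycin line. The list was written with the paclitaxel line result known, so its values in that line add nothing independent.

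S100A proteins are small calcium-binding proteins, and most of their genes sit in a cluster on chromosome 1. Of 15 kept, 3 were lower (20%) and none was higher, with medians of -0.98 in the adriamycin line and -1.12 in the paclitaxel line. S100A6 had 11114, 6116 and 3711 counts and 1716, 619 and 466 TPM and was 2.66- and 4.62-fold lower. S100A2 had 1434, 1048 and 893 counts and was 2.0- and 2.48-fold lower. Chromosome 1 had medians of -0.52 in the adriamycin line and -0.35 in the paclitaxel line over its protein-coding genes with 100 or more counts in any library. After these medians were subtracted, S100A4 alone of the 3 stayed past 2-fold, at a common log2 change of -3.42.

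Antigen presentation behaved in a like way. Of 18 MHC class I presentation genes, 4 were lower (22.2%, against 4.74% of all kept genes) and none was higher. To any degree, 12 of the 18 were lower than MM468 in both lines, beside 5700 of the 19561 kept genes. HLA-C had 11371, 7176 and 7537 counts and was 2.32- and 2.33-fold lower. HLA-F had 1289, 750 and 660 counts and was 2.52- and 3.01-fold lower. PSMB8, an immunoproteasome subunit, had 4691, 2958 and 3597 counts and was 2.32- and 2.01-fold lower. HLA genes share reads with each other. The 4 called genes, TAP1 included, all lie on chromosome 6, whose medians were -0.20 in the adriamycin line and -0.55 in the paclitaxel line. After subtraction, 1 of the 4 remained past 2-fold, HLA-F at -1.04. B2M, on chromosome 15, had 11684, 9310 and 31783 counts and went in opposite directions in the 2 lines.

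Of 37 interferon-stimulated genes, 4 were lower (10.8%, against 4.74% of all kept genes) and 2 were higher (5.41%, against 8.12%). GBP2, a guanylate-binding protein, had 427, 117 and 72 counts and was 5.34- and 9.15-fold lower. OAS1, an antiviral oligoadenylate synthetase, had 403, 164 and 168 counts and was 3.60- and 3.70-fold lower. HERC6 had 162, 532 and 966 counts and was 2.24- and 3.87-fold higher, and IFITM2 had 51, 655 and 213 counts and was 8.78- and 2.71-fold higher.

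Of 39 cytokine and chemokine genes, 9 were lower (23.1%, against 4.74% of all kept genes) and 6 were higher (15.4%, against 8.12%). IL6 had 36, 302 and 943 counts and was 5.73- and 17-fold higher. IL15 had 69, 299 and 330 counts and was 2.96- and 3.10-fold higher. CXCL2, a neutrophil chemokine, had 3, 65 and 53 counts, and its fold was 14.8 in the adriamycin line (95% interval 4.85 to 73.7) and 11.5 in the paclitaxel line (3.71 to 57.3). CSF1, the macrophage growth factor, had 2035, 725 and 416 counts and was 4.11- and 7.54-fold lower. LIF had 3175, 1047 and 2173 counts and was 4.44- and 2.25-fold lower. TNFSF10, the death ligand TRAIL, had 927, 482 and 510 counts and was 2.81- and 2.80-fold lower. CCL22 had 787, 376 and 10 counts and CX3CL1 had 3781, 2480 and 720, both much lower in the paclitaxel line than in the adriamycin line.

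Several families had called genes in the higher direction alone, mostly from a low base in MM468. Of 6 kept TCEAL and BEX genes on the X chromosome, 3 were higher (50%). They were TCEAL9 with 0, 46 and 2072 counts, TCEAL8 with 2, 13 and 635 and BEX2 with 0, 16 and 44. The adriamycin line reached 46 counts at most in these genes, so the shared part of their change was small in counts. Of 12 MAGE genes, which encode cancer-testis antigens, 3 were higher (25%), and MAGEA1 had 3, 79 and 90 counts. Of 27 HOX genes, 4 were higher (14.8%). HOXB13 had 5, 115 and 61 counts, 15.7- and 7.91-fold higher, and HOXA13 had 37, 218 and 217 counts, 4.03- and 3.80-fold higher. Of 11 SERPINB genes, which encode intracellular protease inhibitors, 4 were higher (36.4%), all clustered on chromosome 18. SERPINB8 had 0, 77 and 206 counts, at least 17.5- and 44.5-fold higher. SERPINB2, the plasminogen activator inhibitor 2, had 6, 591 and 60 counts, 67.3- and 6.48-fold higher. None of these 4 families had a gene lower in both lines. Over all kept genes, 8.12% were higher and only 4.74% were lower, so lists this short can hold no lower gene without being unusual. Without the count minimum, 1 HOX gene was lower. With a minimum of 100 counts in any library, 0 MAGE genes were higher.

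Sterol synthesis genes were lower more often than higher. Of 31 cholesterol and fatty acid genes, 5 were lower (16.1%, against 4.74% of all kept genes) and 1 was higher (3.23%, against 8.12%). To any degree, 23 of the 31 were lower than MM468 in both lines, beside 5700 of the 19561 kept genes. The medians of the list were -0.50 in the adriamycin line and -1.11 in the paclitaxel line. SREBF1 had 3856, 2450 and 2028 counts and was 2.30- and 2.93-fold lower, and SREBF2 had 8812, 6285 and 5091 counts and was 2.05- and 2.67-fold lower. These encode the transcription factors that drive lipid synthesis. INSIG1, which retains SREBP in the endoplasmic reticulum, had 2655, 1906 and 634. The desaturase gene FADS1 was higher, with 601, 1918 and 2825 counts. With chromosome medians subtracted, 4 genes of the list remained lower by 2-fold or more.

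Of 20 NRF2 target genes, FTL was higher (5%, against 8.12% of all kept genes). SLC6A9, a glycine transporter, was lower (5%, against 4.74%), with 2880, 1199 and 462 counts. Of 22 genes of glucose uptake and glycolysis, only the transporter SLC2A3 was called, with 15, 112 and 3657 counts. Of 20 stress response genes, only XBP1 was called, and its call ended when chromosome medians were subtracted. Of 18 aldehyde dehydrogenases, ALDH1A2 was lower, with 106, 49 and 29 counts, and ALDH1L1 was called higher on 2 counts in the adriamycin line.

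Of 14 genes of the EGFR family and its ligands, 2 were higher (14.3%). ERBB4 had 0, 53 and 523 counts, at least 12.1- and 113-fold higher, and the ligand EPGN had 59, 294 and 284 counts, 3.41- and 3.12-fold higher. Of 26 Hippo pathway genes, WWC2 and the giant cadherin FAT4 were higher (7.69%, against 8.12% of all kept genes). CCN2 was lower (3.85%, against 4.74%). CCN2, a matricellular protein induced by YAP, had 7076, 2099 and 2577 counts and was 4.93- and 4.23-fold lower. FAT4 had 8, 29 and 895 counts. None of 75 cytosolic ribosomal protein genes and none of 14 reference genes was called, although the ribosomal medians were 0.54 in the adriamycin line and -0.24 in the paclitaxel line.

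**Figure D3:**
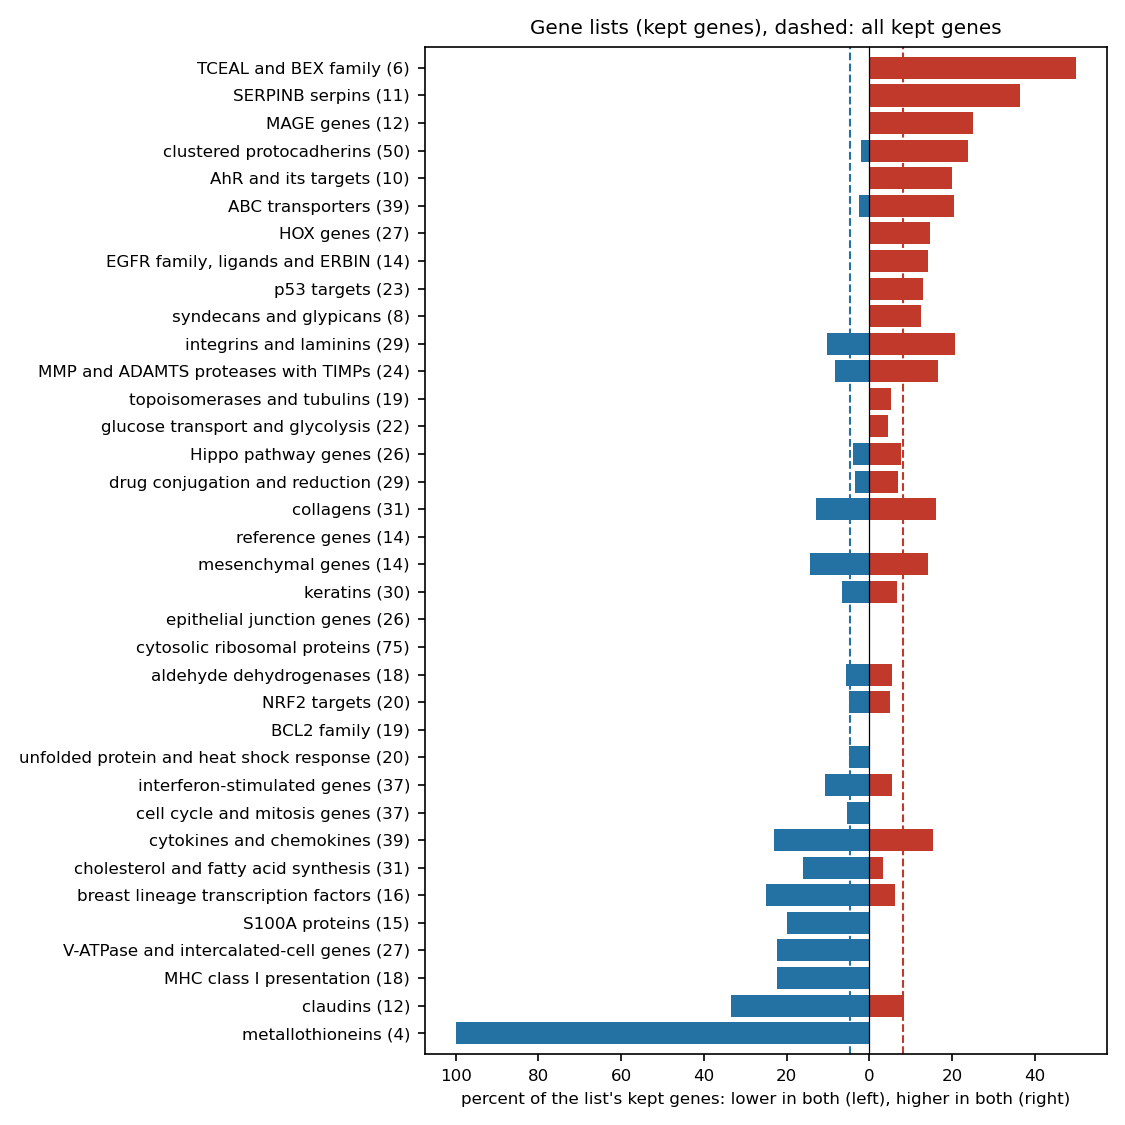
Share of the kept genes of each of 36 gene lists that were higher in both lines by 2-fold or more (red, to the right) and lower in both (blue, to the left), with the number of kept genes in parentheses. Dashed lines mark 8.12% and 4.74%, the shares over all kept genes. Over the protein-coding genes kept, the shares were 5.78% and 4.54%. Short lists give coarse shares, as for the 4 metallothioneins, all lower.

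The calls were spread unevenly over the chromosomes. Of the 12326 protein-coding genes that reached 100 counts in any library, 3.24% were higher and 3.57% were lower in both lines. On chromosome 1, 7.28% of 1263 genes were lower and 1.03% were higher. On chromosome 22, 7.77% of 296 genes were lower and 2.03% were higher, with median log2 changes of -0.48 in the adriamycin line and -0.61 in the paclitaxel line. On chromosome 6, 6.58% of 638 genes were lower and 2.98% were higher. All 3 chromosomes had negative medians in both lines. Chromosome 14 had 0.993% lower and 4.71% higher genes, with medians of 0.49 in the adriamycin line and 0.11 in the paclitaxel line. Chromosome 17 had 1.20% lower and 4.12% higher genes, with medians of 0.39 in the adriamycin line and 0.05 in the paclitaxel line. DNA copy number was not measured here, and its part in these medians was not tested.

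Subtracting each chromosome's median from its genes left 1535 genes higher and 817 lower of 19097 with a chromosome, and 1408 and 739 of these were among the original calls. Of the abundant genes named above, S100A6, NDUFS5, PEG10 and ITGA3 then fell short of 2-fold, with common log2 changes of -0.89, -0.78, 0.97 and 0.90. Among list members named here, TAP1, HLA-C, PSMB8, FOXC1, CCND3, MCM3, GSTM3, S100A2, XBP1, SREBF2, LIF and MT1E also fell short. ABCB1 went from 9.04 to 8.94, STRA6 stayed at -6.51 and COL12A1 went from 6.33 to 6.53. PLEKHS1 on chromosome 10 moved further, from -5.51 to -4.73. With scaling by library size alone in place of TMM, GSTM3, MCM3, FOXA1, HLA-C, PSMB8, LIF, MT1E, NDUFS5 and S100A2 came out under 2-fold.

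**Figure D4:**
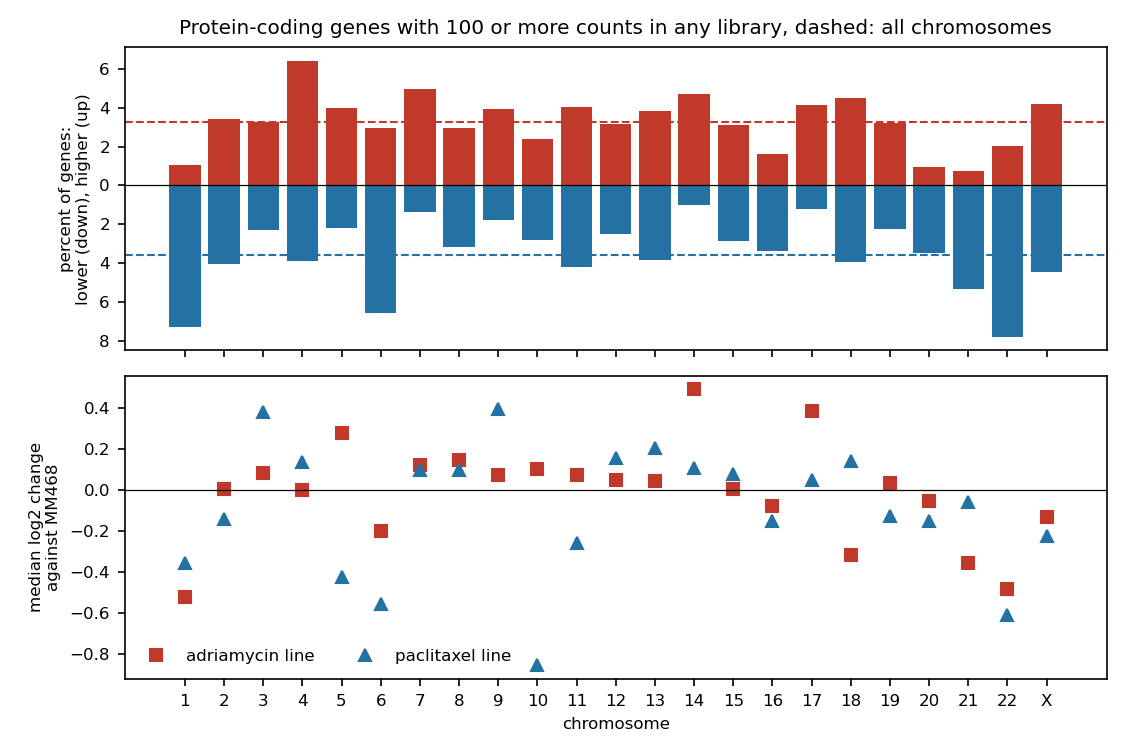
Upper panel, share of protein-coding genes with 100 or more counts in any library that were higher (red, up) or lower (blue, down) in both lines by 2-fold or more on each chromosome, with dashed lines at 3.24% and 3.57%. Lower panel, median log2 change of the same genes in the adriamycin line (red squares) and the paclitaxel line (blue triangles), where chromosomes 1, 6 and 22 lie below 0 in both lines.

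Neighbouring genes were called together in 38 runs of 3 or more protein-coding genes. A run on chromosome 11 (chr11:111245725-111514725) held C11orf53, COLCA1, COLCA2, POU2AF1 and BTG4, all lower. COLCA2 had 500, 91 and 94 counts and was 8.04- and 8.20-fold lower, and COLCA1 had 663, 90 and 235 counts and was 10.8- and 4.35-fold lower. Another run on that chromosome (chr11:103109426-105036686) held CASP4, CASP5 and CASP1 and was higher. STRA6 lay between ISLR and CCDC33, both lower as well, over chr15:74173710-74336472, where CCDC33 had 94, 2 and 0 counts. On chromosome 4, the receptor tyrosine kinase genes PDGFRA, KIT and KDR were lower together, over chr4:54229293-55125595. KIT had 65, 3 and 0 counts and KDR had 209, 61 and 19. Runs in the UGT1A, protocadherin, CGB and PSG clusters involve genes that share exons or near-identical sequence.

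Promoters of the called genes were less often rich in CpG dinucleotides than those of all kept genes. Windows of 300 bases were found for 11751 of 14504 protein-coding genes kept, 634 of the 839 higher and 501 of the 659 lower in both. An observed-to-expected CpG ratio of 0.6 or more was reached by 78.9% of all windows, 57.1% of those of higher genes and 56.3% of those of lower genes. Where every library had 100 or more counts, the shares were 86.0%, 75% and 70.6%, so the gap was narrower where all genes were well expressed. The letters TATAAA on either strand, the core of a known promoter element, were found in 6.37%, 11% and 10.8%, respectively. The core of the xenobiotic response element, GCGTG, was in 49.1%, 39.3% and 41.9%. The octamer ATGCAAAT, the letters that the partners of POU2AF1 bind, was in 1.53%, 4.10% and 2.00%. Among genes with 100 or more counts in every library, the shares were 5.01%, 11.8% and 9.96% for TATAAA and 52.3%, 38.2% and 48.1% for GCGTG. The octamer was then in 1.20%, 1.47% and 2.60%, where the 1.47% is 1 of 68 windows and close to the share of all such genes.

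The windows of WWC2 (chr4:183099007-183099306, plus strand), COL12A1 (chr6:75206004-75206303, minus strand) and STRA6 (chr15:74212210-74212509, minus strand) are shown because these genes had among the largest common changes and lay at opposite ends of this scale. CpG dinucleotides are in capitals, 42 in WWC2, 29 in COL12A1 and 3 in STRA6, and the sequences are from RefSeq, GRCh38.p14.
WWC2: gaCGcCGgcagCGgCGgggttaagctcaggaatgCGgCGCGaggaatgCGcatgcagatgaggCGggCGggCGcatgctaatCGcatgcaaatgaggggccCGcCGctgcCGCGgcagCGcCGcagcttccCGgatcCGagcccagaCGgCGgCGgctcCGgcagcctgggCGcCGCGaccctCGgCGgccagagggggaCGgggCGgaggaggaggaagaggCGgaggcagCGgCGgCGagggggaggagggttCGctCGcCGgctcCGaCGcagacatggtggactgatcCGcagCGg
COL12A1: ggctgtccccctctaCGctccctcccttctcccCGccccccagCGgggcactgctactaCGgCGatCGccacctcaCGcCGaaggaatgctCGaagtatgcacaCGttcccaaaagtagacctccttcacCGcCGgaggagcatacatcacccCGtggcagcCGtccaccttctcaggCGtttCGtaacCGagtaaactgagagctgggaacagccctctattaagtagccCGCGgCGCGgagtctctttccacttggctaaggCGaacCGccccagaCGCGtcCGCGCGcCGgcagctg
STRA6: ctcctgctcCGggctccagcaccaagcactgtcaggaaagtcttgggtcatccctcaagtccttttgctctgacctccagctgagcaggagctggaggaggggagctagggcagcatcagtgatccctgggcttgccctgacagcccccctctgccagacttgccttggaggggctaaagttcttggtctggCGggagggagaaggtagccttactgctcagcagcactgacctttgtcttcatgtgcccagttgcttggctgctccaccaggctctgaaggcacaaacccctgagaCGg
WWC2 had no count in MM468 with a CpG-rich window, while STRA6, well expressed in MM468, had a CpG-poor one. These genes do not stand for the called genes at large. Among genes higher in both with 3 or fewer counts in MM468, 52.0% of windows reached a ratio of 0.6, against 78.9% of all windows.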

How the data were processed

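Each of the 3 lines was sequenced as 1 poly(A)-selected, strand-specific RNA library. The submitters' processing notes name Trimmomatic 0.39, HISAT2 2.2.1, StringTie 2.2.1 and the build GRCh38. The annotation release and the strand setting of the counting are not given in the sources used here. The deposited file lists 46427 genes with raw read counts per library. FPKM and TPM columns of the authors stand beside them and were used as levels per length and as alternatives.

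Samples were grouped by their labels, with the resistant lines as 1 group of 2 libraries. Genes with 10 or more counts in any library were kept and scaled by TMM on all 3 libraries in R 4.3.3 with edgeR 4.0.16. Log2 changes used a small prior count (edgeR's default for fitting). The common change is the smaller of both changes when their signs match, and 0 otherwise, and was called at 2-fold. Printed folds are ratios of scaled counts with exact binomial 95% intervals. Against 0 counts a fold is a bound taken at 3 counts per library. The group was tested with edgeR's quasi-likelihood test (Benjamini-Hochberg adjustment) and, as an alternative, DESeq2 1.42.0. The common change and the quasi-likelihood test were also run on simulated data. The simulated spread was far smaller than the common coefficient of variation fitted here, 0.579, and no scarce gene was given a change. The simulation therefore cannot show how the methods perform at this spread or on scarce genes.

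Genes named are the 15 protein-coding genes with the largest common change in each direction (counts below 3 set to 3, and 100 or more counts in both resistant lines or in MM468), the 10 with the largest TPM gain or loss, the 10 with the smallest quasi-likelihood p in each direction, called members of 36 gene lists, and genes the study names. Some items that these rules choose are not reported here. The rules left out 1042 called genes of another type and 31 readthrough genes. Other genes named, such as neighbours in a run and uncalled list members, were chosen after their values were seen. Members and lists were chosen with earlier results of these data known. Positions and promoters are from RefSeq GRCh38.p14, and figures were drawn with matplotlib 3.10.9. Subtraction of chromosome medians and the requirements on counts were added after the data were seen.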

Additional observations from a re-analysis of the deposited data

Results flagged for a closer look

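Some genes went in opposite directions in the 2 resistant lines. The adriamycin line was 2-fold or more higher and the paclitaxel line 2-fold or more lower than MM468 for 131 genes. The adriamycin line was 2-fold or more lower and the paclitaxel line 2-fold or more higher for 318 genes. With 1 library per line these differences between the lines were not tested.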

How the results depend on the processing

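With 1 library per line, the printed intervals cover counting error only, and the quasi-likelihood test took the gap between the resistant libraries as its error. The calls moved from 1589 genes higher and 927 lower to 2491 and 1841 without a count minimum, to 544 and 480 with a minimum of 100 counts in any library, and to 895 higher with a count required in all 3 libraries. A 4-fold threshold left 955 and 308. The deposited values gave 346 and 394 as TPM with a pseudocount of 1, and 160 and 275 as FPKM with a pseudocount of 1. Of the requirements added after seeing the data, 100 counts in every library left 95 and 305, the counting interval from 2-fold left 460 and 530, and protein-coding genes alone 839 higher. Lower genes outnumbered higher ones under both pseudocounts of 1, the counting interval and 100 counts in every library. Leaving out a resistant line, which leaves the changes of the other line with no test, gave 2386 to 4032 higher and 2357 to 2684 lower genes. The other scalings, a prior count of 2, TPM with a pseudocount of 0.1, counts below 3 set to 3 and subtraction of chromosome medians kept both counts within 1.5 times. The quasi-likelihood test called 6 genes higher and 3 lower with a minimum of 100 counts, against 0 and 0 in its other settings, where its smallest adjusted p lay between 0.0704 and 0.988, and DESeq2's Wald test called 166 and 80. Of 581 recomputed changes of 54 named genes, 423 stayed within the counting interval, 158 moved outside it and 0 reversed. Of 1362 recomputed changes of 130 other called list members, 302 moved outside the counting interval and 0 reversed. Of 432 recomputed numbers of called genes per list, 49 moved, by more than 1.5 times or to or from 0. Of 53 named genes called, 7 fell under 2-fold on FPKM with a pseudocount of 1 and 0 when either resistant line was left out. No paired analysis was possible because the single MM468 library is shared and the labels give no replicate numbers.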

Other observations

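The groups in this section were put together after the values of their genes had been seen, so their counts describe these libraries and test nothing. Over all kept genes, 8.12% were higher and 4.74% were lower in both lines. Hormones and proteins of placenta and pregnancy were a recurring group among the genes higher in both lines. Of 21 kept, 15 were higher and none was lower. PAPPA, a protease that frees insulin-like growth factors, had 70, 1125 and 1417 counts and was 11- and 13.1-fold higher. PSG9, a pregnancy-specific glycoprotein, had 831, 3301 and 9168 counts and was 2.71- and 7.15-fold higher, and PSG4 had 256, 4187 and 2613 counts and was 11.2- and 6.62-fold higher. CGB7, a chain of chorionic gonadotropin, had 7, 60 and 163 counts and was 5.86- and 15.1-fold higher. The CGB genes with LHB, and the PSG genes, are near-identical copies that can exchange reads, and the other CGB genes had 15 counts or fewer. A list of 19 histone genes, which does not hold all of them, had 18 kept, of which 10 were higher and none was lower. H4C12, H2AC15 and H2BC15, also called higher, lay outside this list. Of the 10, H1-5, H3C2, H3C4 and H4C4 had 3 or fewer counts in MM468. H2BC5 had 694, 2090 and 2460 counts and was 2.06- and 2.30-fold higher, H2BC4 had 93, 462 and 725 counts and was 3.39- and 5.06-fold higher, and H2BC21 had 78, 297 and 2294 counts. All but H2BC21 of the 10 lie on chromosome 6, where the median gene was lower. Replication-dependent histone mRNAs carry no poly(A) tail, so poly(A) libraries hold only part of them. All 4 kept skeletal muscle myosin heavy chain genes were higher, and MYH2 had 0, 142 and 1056 counts.

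Among genes of retinoid handling, 4 of 21 were lower and 1 was higher. Beside STRA6, the retinol dehydrogenase RDH10 had 2782, 959 and 1484 counts and was 4.25- and 2.89-fold lower, and the retinaldehyde dehydrogenase ALDH1A2 was 3.17- and 5.64-fold lower with 106, 49 and 29 counts. CYP26A1, which degrades retinoic acid, had 0, 27 and 12 counts, at least 6.15- and 2.59-fold higher. Other members did not follow. CYP26B1, a second degrading enzyme, had 110, 89 and 176 counts and ALDH1A3, the most abundant of these dehydrogenases, had 25368, 49671 and 40313, both uncalled, and ALDH1A1 was higher in the adriamycin line alone, with 19, 232 and 11 counts. Of 14 genes induced by glucocorticoids, 3 were lower and 2 were higher. Beside TSC22D3, SGK1 had 683, 132 and 380 counts and was 7.57- and 2.77-fold lower, and FKBP5 had 2919, 1995 and 1478 counts and was 2.14- and 3.05-fold lower, while KLF9 had 118, 499 and 885 counts and was 2.89- and 4.86-fold higher. SGK1 and FKBP5 lie on chromosome 6 and came to -0.92 and -0.90 on the log2 scale after its medians were subtracted. Of 8 kept genes for inflammatory caspases and related proteins, CASP1, CASP4 and CASP5 were higher and none was lower. CASP1 had 418, 2173 and 1445 counts and was 3.55- and 2.24-fold higher, while CASP5 had only 0, 12 and 2 counts. GSDMD, IL18, PYCARD, CARD16 and CARD17 were not called.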
